A study of Mus musculus with 58 samples.

Results

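Cyclins L1 and L2, the CDC-like kinases Clk1 and Clk4 and 6 further genes of nuclear RNA and chromatin work, Crebzf, Ogt, Nxf1, Dido1, Acin1 and Akap8, were followed across lung, liver and forestomach of mice dosed with the polycyclic aromatic hydrocarbon benz(a)anthracene (BaA). These 10 genes of 20018 with a symbol on the array were chosen by their log2 changes from vehicle in lung and liver, most being higher in dosed lung and lower in dosed liver, so their changes in those tissues are given as a description, without p-values. They were read by 20 of 55681 probes. In lung and in forestomach 19 of the 20 could be tested, and in liver 18.

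All animals were male Muta™Mouse, a transgenic strain used in mutation assays, aged 10 weeks, gavaged daily for 28 days with olive oil alone (D0) or with BaA in olive oil at daily doses of 20 (D1), 40 (D2) and 80 (D3) mg per kg body weight, and tissues were taken 72 h after the last dose. Lung was measured in 5 mice at each dose. Liver was measured in 5, 5, 5 and 4 mice from D0 to D3, and forestomach in 4, 5, 5 and 5. Each of the 58 two-colour Agilent arrays held RNA of 1 tissue of 1 mouse in Cy5 and a common reference RNA of mouse cell lines in Cy3, so that every value is a log2 ratio of tissue over reference and a change is the mean log2 ratio at a dose minus that at D0. A probe is called where its limma p-value, Benjamini-Hochberg adjusted over all probes tested, is at most 0.05 and its fold change at least 1.5. The number of arrays limits the precision.

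Between 44.4 and 55.2% of gene spots were well above background in Cy5 on the lung arrays, 34.1 to 45.7% on the liver arrays and 38.4 to 69.2% on the forestomach arrays, and within each tissue the ranges of the 4 dose groups overlapped. The share differed by slide. Slide 3 had at most 49.6% in lung and 42.1% in forestomach, where the other slides had at least 53 and 52.4%. In liver, slide 3 had at least 40.7% and the other slides at most 39.4%. The D0 liver array of mouse 5 had 1.12% of its gene spots marked as outliers. The labels fitted the tissue markers. Sftpc, the surfactant protein of alveolar cells, had a median log2 ratio of 7.57 in lung and 0 in liver, and Alb, serum albumin, 6.29 in liver and 0.25 in lung. Krt5, a keratin of squamous epithelium, was at 4.02 in forestomach. Of the heart muscle markers, Myh6 had a median of 5.52 in lung and Nppa 0.07, and Myl7 had 3.45 in lung and 3.44 in forestomach. Gkn2, a gene of the glandular stomach, was at 6.90 in forestomach. The mean of the glandular markers ran from 0.68 to 6.48 among the D0 forestomachs. In lung, skeletal muscle markers lay at -0.54 to 5.88 at D0, -0.57 to -0.21 at D1 and -0.47 to 1.97 at D3. Squamous epithelium markers in lung lay at -0.59 to 3.94, -0.69 to -0.31 and -0.73 to 1.66 at these doses. Fat markers in lung lay at 1.19 to 2.39 at D0 and 2.19 to 6.33 at D2. The part of such carried-over tissue in the changes was not tested. A pair of arrays stood apart for the genes described here: the D0 liver of mouse 5 lay near the dosed livers, and the D3 lung of mouse 19 lay above the other dosed lungs. Several counts of calls and changes in which either array enters are also given without it, but not all of them.

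As background, cyclin L proteins pair with CDK11 kinases and sit with splicing factors, and CLK kinases phosphorylate the serine- and arginine-rich (SR) proteins that choose splice sites. Nxf1 is the main receptor that carries spliced mRNA through the nuclear pore, and Acin1 (acinus) belongs to the ASAP complex that is laid down on spliced mRNA. Ogt attaches O-GlcNAc, a single sugar, to nuclear and cytoplasmic proteins. Several of these genes, Clk1, Clk4 and Ogt among them, are known to hold part of their own transcripts in the nucleus with an intron retained, and an array probe reads only one short stretch of a transcript.

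Promoters were matched by symbol in the RefSeq promoter table of build GRCm38.p6 for 9 of the 10 genes (Clk1 had no match). In the 250 bases before the start, TGACG, the core of the cAMP response element, was found on either strand in 4 of the 9 genes, Ccnl1, Ccnl2, Clk4 and Crebzf, and in 17.8% of all 32851 promoters in the table. Its full palindrome TGACGTCA, which contains that core on both strands, was found in Ccnl1 and Clk4 and in 1.55% of all promoters. The letters were chosen after the promoters had been read, so the counts are a description. The 150 bases before the start are shown for the 3 genes with the core in that window, with TGACG and its reverse complement in capitals: Ccnl1 at chr3:65958250-65958399 (minus strand), Ccnl2 at chr4:155812339-155812488 (plus strand) and Clk4 at chr11:51262964-51263113 (plus strand).
Ccnl1: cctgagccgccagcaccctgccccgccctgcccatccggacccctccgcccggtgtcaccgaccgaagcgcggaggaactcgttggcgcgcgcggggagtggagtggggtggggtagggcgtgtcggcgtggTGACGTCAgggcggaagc
Ccnl2: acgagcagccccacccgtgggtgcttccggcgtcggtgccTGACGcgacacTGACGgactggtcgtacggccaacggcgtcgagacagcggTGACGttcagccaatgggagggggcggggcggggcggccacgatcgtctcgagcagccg
Clk4: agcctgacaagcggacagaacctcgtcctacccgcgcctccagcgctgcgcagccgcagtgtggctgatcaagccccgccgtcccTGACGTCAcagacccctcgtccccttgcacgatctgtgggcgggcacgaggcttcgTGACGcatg

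The palindrome began 18 bases before the start in Ccnl1 and 65 before it in Clk4, where a further core began 9 bases before the start. Ccnl2 held 3 cores, beginning 110, 99 and 59 bases before its start. The Ccnl1 and Ccnl2 windows lie inside the annotated span of their gene. GCGTG, the core of the element bound by the aryl hydrocarbon receptor, was found in at least 1 listed promoter of 6 of the 9 genes and in 28.2% of all promoters, and CCAAT in 3 genes and 33.8%. CACGTG (6.02% of all promoters) and GAANNTTC (6.69%), a core of the heat shock element, were found in none of the 9. For every motif the gene counts take any listed promoter of a gene, and some genes have several. The percentages are over single promoters, so the gene counts and percentages are not like for like. No factor binding was measured here.

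Among the brightest probes of the 10 genes, none was called in lung at D1, where 0% of all 30399 tested probes were called in either direction. In lung 6 genes were called higher at D2 (0.484% of all probes) and the same 6, Ccnl2, Clk1, Clk4, Crebzf, Ogt and Akap8, at D3 (1.32%). Acin1 was called lower in lung at D3 (0.566%). In liver 4 genes were called lower at D1 (0.237%), 5 at D2 (0.552%) and 3 at D3 (0.359%): Ccnl2 and Crebzf at every dose, Ogt and Nxf1 at D1 and D2, Clk1 at D2 and Acin1 at D3. The median change of the 10 genes was 0.03, 0.63 and 0.82 in lung from D1 to D3, and -0.52, -0.59 and -0.36 in liver, while that of all probes lay between -0.01 and 0. Since these contrasts chose the genes, nothing is read from the counts. The calls depended on the normalization: with each array centred on its median in place of loess, 1 gene was called lower in liver at D1, 5 at D2 and 1 at D3, and 0 of the genes and 0 of all probes were called in lung at either D2 or D3, while with the slide as a block added to that centring 7 of the 10 genes were called higher at D3, among 1175 probes higher and 31 lower against 400 and 172 with loess. In liver, fitting only the 2 groups compared gave 0, 3 and 0 genes lower from D1 to D3. For these liver counts and those with median centring, the share of all probes called in the same fits is not given. A loss particular to the 10 genes cannot be read from them. Leaving out single mice kept all 6 lung calls at D3 in each of 20 fits and the Akap8 and Clk4 calls at D2, but ended the D2 calls of Ccnl2 (without mouse 2, 3, 4, 5, 11, 12, 13 or 15), Crebzf (2, 3, 4, 12, 13, 14 or 15), Ogt (3, 13 or 15) and Clk1 (15). In liver it ended the D2 calls of Clk1 (2, 3, 4 or 11) and Ogt (4) and the D3 call of Ccnl2 (1, 3, 17 or 18). How many of all probes kept their call in these fits is not given. With any probe of a gene counted (a choice made after seeing the data) 7 genes were called higher in lung at D2 and D3, and 5, 6 and 4 lower in liver. By the same count 2 genes, Acin1 and Dido1, were called lower in lung at D3, so that Dido1 was counted in both directions. The share of all genes called by any probe is not given beside these counts. Over all 19 tested probes of the 10 genes the median change in lung was 0.21 at D2 and 0.24 at D3, smaller than by the brightest probes. In whole tissue, fewer cells of a type and less RNA per cell cannot be told apart.

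**Figure D1:**
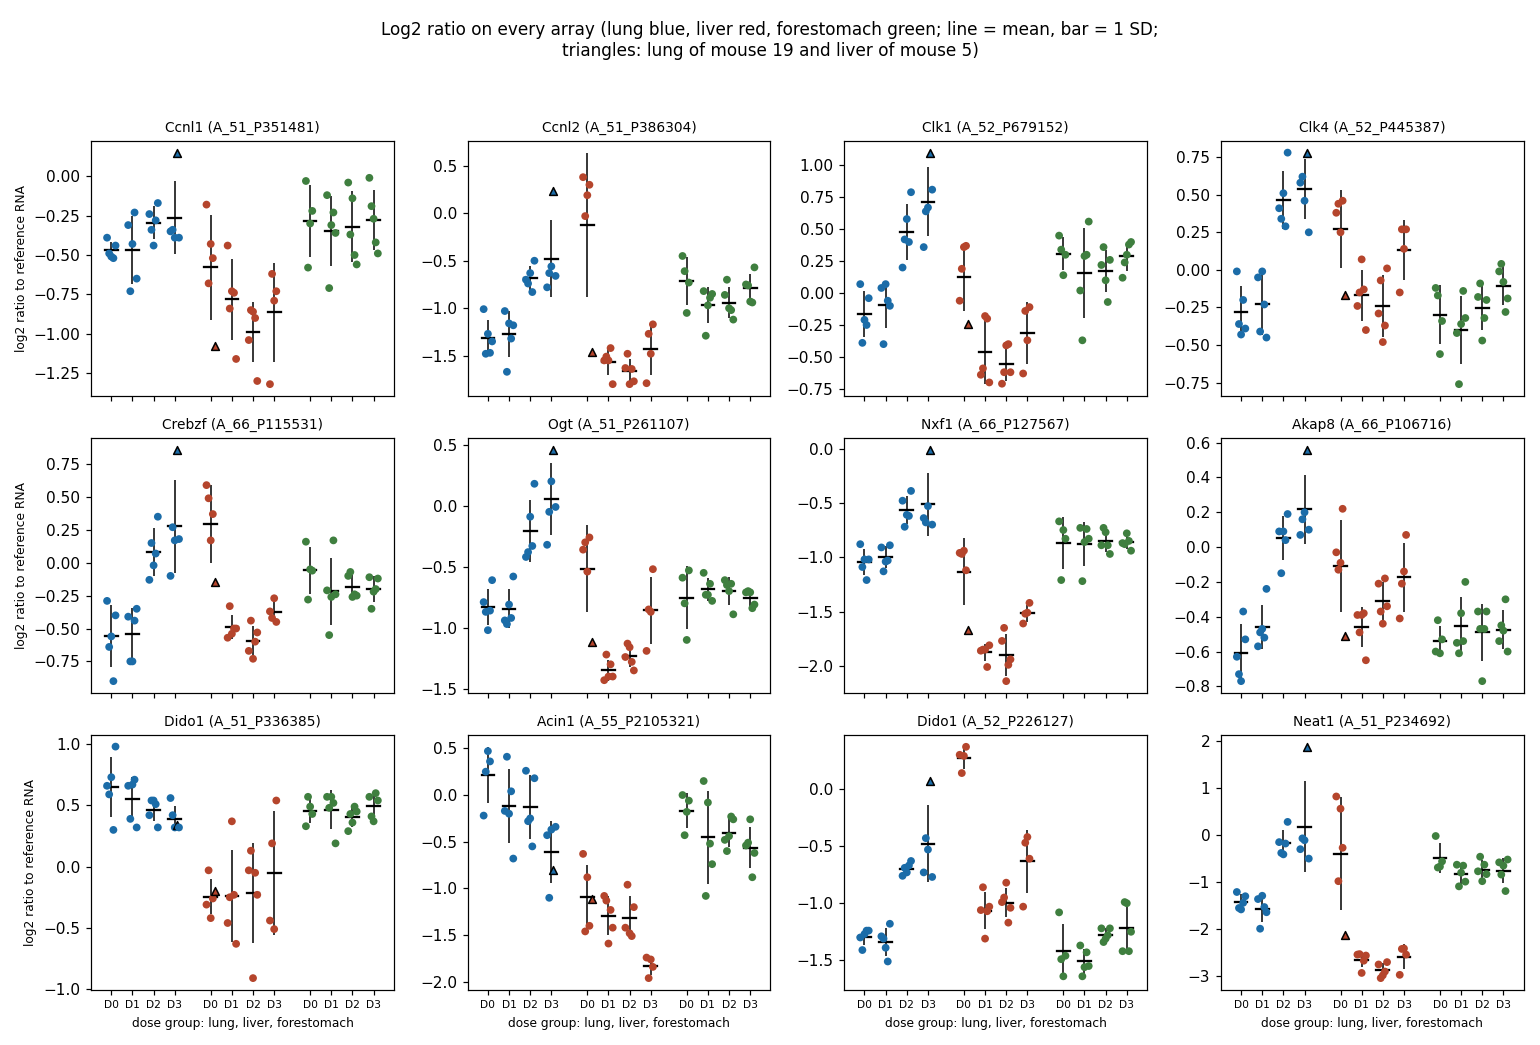
Log2 ratio of tissue over reference RNA (vertical axis) by tissue and dose (horizontal axis) for 1 probe of each of the 10 genes, a further Dido1 probe and the nuclear RNA Neat1; each point is 1 array, and triangles mark the D3 lung of mouse 19 and the D0 liver of mouse 5. For Ccnl2, Clk1, Crebzf and Ogt the D2 and D3 lungs lie above the D0 lungs, and the D1 and D2 livers lie below the D0 livers other than that of mouse 5.

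Ccnl2 (NM_207678) had the largest liver change among the brightest probes of the 10 genes. In lung its log2 ratio was -1.01, -1.48, -1.27, -1.47 and -1.35 at D0, -0.70, -0.74, -0.63, -0.83 and -0.50 at D2, and -0.78, -0.63, -0.56, 0.23 and -0.66 at D3. The D2 and D3 lungs lay above every D0 lung, and mouse 19 was the highest. In liver it was 0.38, -0.03, 0.19, 0.30 and -1.46 at D0 and -1.63, -1.48, -1.80, -1.64 and -1.77 at D2. Every D2 liver lay below every D0 liver, by a wide gap for 4 of the 5 D0 mice and by a narrow one for mouse 5. The change was 0.84 (SE 0.15) in lung at D3 and -1.54 (SE 0.24) in liver at D2. Without mouse 5 the liver change at D2 was -1.87, and without mouse 19 the lung change at D3 was 0.66.

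Ccnl1 (NM_019937), the paralog, had smaller changes. Its brightest probe changed from -0.47 ± 0.05 (SD, n = 5) in D0 lung to -0.26 ± 0.23 at D3, a difference of 0.21 (SE 0.11), and by -0.41 (SE 0.16) in liver at D2. The groups overlapped in both tissues. Its second probe differed in direction in lung, with 0.03, 0.06, 0.11, -0.05 and -0.01 at D0 and -0.34, -0.60, -0.61, -0.42 and -0.41 at D3, a change of -0.51 (SE 0.10) that is under the fold threshold. No Ccnl1 probe was called.

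Both CLK kinases followed Ccnl2 in lung. Clk1 (NM_001042634) was at 0.07, -0.39, -0.21, -0.25 and -0.04 in D0 lungs and at 0.36, 0.64, 0.67, 1.10 and 0.81 in D3 lungs, with no overlap and a change of 0.88 (SE 0.13). In liver it was at -0.06, 0.19, 0.36, 0.37 and -0.24 at D0 and at -0.71, -0.62, -0.41, -0.40 and -0.62 at D2, a change of -0.68 (SE 0.14), and its liver groups overlapped at D1 and D3. Clk4 (NM_007714) changed in lung by 0.74 (SE 0.12) at D2 and 0.81 (SE 0.12) at D3. Its lungs lay between -0.43 and -0.01 at D0 and between 0.25 and 0.78 at D3. In liver it changed by -0.44, -0.51 and -0.14 from D1 to D3, which with all arrays was not called at any dose. Its second probe gave 0.87 (SE 0.11) in lung at D3 and -0.58 (SE 0.12) in liver at D2, so that the pair of Clk4 probes differed by 0.05 and 0.07.

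Crebzf (NM_145151), a basic leucine zipper protein that binds the transcription cofactor HCF-1, was, among the brightest probes, the gene whose D0 livers were separated from the dosed livers at every dose. Its D0 livers were at 0.59, 0.49, 0.17, 0.37 and -0.15, the last being mouse 5, and the D2 livers at -0.67, -0.44, -0.73, -0.60 and -0.53. The change was -0.89 (SE 0.11) at D2 and -0.67 (SE 0.12) at D3. D0 lungs were at -0.29, -0.64, -0.56, -0.90 and -0.40 and D3 lungs at -0.10, 0.27, 0.17, 0.86 and 0.18, a change of 0.83 (SE 0.15). A second, dimmer probe changed by 0.24 in lung at D3 and -0.25 in liver at D2, and the remaining one, well above background on 18 lung arrays and 1 liver array, by 0.20 in lung.

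Ogt (NM_139144) was at -0.79, -0.87, -1.02, -0.86 and -0.61 in D0 lungs and at -0.32, -0.05, 0.20, 0.46 and -0.01 in D3 lungs. These groups did not overlap, and the change was 0.88 (SE 0.13). Its D0 livers were at -0.36, -0.30, -0.54, -0.26 and -1.12 and its D1 livers at -1.43, -1.22, -1.40, -1.30 and -1.40. The liver change was -0.83 (SE 0.14) at D1, -0.71 (SE 0.14) at D2 and -0.34 (SE 0.15) at D3, where the groups overlapped. The second Ogt probe, dimmer and well above background on 10 of 19 liver arrays, changed by 0.14 in lung at D3 and by -0.16 in liver at D2.

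Nxf1 (NM_016813) was read by 1 probe. D0 livers were at -0.96, -0.97, -0.94, -1.12 and -1.67 and D1 livers at -1.86, -1.85, -1.85, -2.01 and -1.81, so that every D1 liver lay below every D0 liver, that of mouse 5 included. The liver change was -0.74 (SE 0.12) at D1, -0.77 (SE 0.12) at D2 and -0.38 (SE 0.13) at D3. In lung it changed by 0.48 (SE 0.11) at D2 and 0.53 (SE 0.11) at D3, without overlap with D0 but under the fold threshold.

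Akap8 (NM_019774), a nuclear anchoring protein of protein kinase A, was at -0.63, -0.73, -0.77, -0.37 and -0.53 in D0 lungs and at 0.07, 0.16, 0.20, 0.56 and 0.10 in D3 lungs, a change of 0.82 (SE 0.10). In liver it changed by -0.35, -0.20 and -0.07 from D1 to D3 (SE 0.11 to 0.12), and its groups overlapped. With all arrays, Akap8 and Clk4 were the genes called in lung and at no dose in liver. Without mouse 5, Clk4 was called lower in liver at D2, at -0.62 by its brightest probe and -0.67 by its second. The lung changes of Akap8 and Clk4 exceeded their liver changes by 0.89 (SE 0.15) and 0.95 (SE 0.18) at D3.

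Dido1, a nuclear protein with a PHD finger and several isoforms, depended on the probe. The brightest (NM_175551) changed by -0.26 (SE 0.11) in lung at D3 and 0.03 (SE 0.22) in liver at D2. Probe A_52_P226127 (NM_011805) was at -1.30, -1.41, -1.27, -1.24 and -1.24 in D0 lungs and at -0.73, -0.43, -0.53, 0.07 and -0.77 in D3 lungs, a change of 0.81 (SE 0.11). In liver that probe was at 0.30, 0.14, 0.29 and 0.37 at D0 and at -0.99, -0.95, -0.82, -1.17 and -1.04 at D2, a change of -1.27 (SE 0.12). These D0 values leave out mouse 5, whose spot was marked as an outlier by the scanner software. In the authors' normalized values that spot was at -1.13, below their D2 livers at -1.05 to -0.71. The change of -1.27 therefore rests on the other D0 livers. Probe A_55_P2430472, which carries the same accession, was lower at D3 in both tissues, with a change of -0.74 (SE 0.16) in lung and -0.64 (SE 0.14) in liver, both called. The liver call was lost without mouse 1, 3, 17, 18 or 19, and the lung call was kept in each of 20 fits. The remaining Dido1 probe (NM_177852) was well above background on 0 arrays.

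Acin1 (NM_023190) was lower at D3 in both tissues. D3 lungs were at -0.43, -1.10, -0.37, -0.80 and -0.34, below the 4 D0 lungs with a usable spot (mouse 3 had none) at -0.22, 0.25, 0.47 and 0.36, a change of -0.82 (SE 0.21). D3 livers were at -1.74, -1.96, -1.76 and -1.84, below the D0 livers at -0.63, -1.46, -0.88, -1.40 and -1.11, a change of -0.73 (SE 0.16). The lung call was lost without mouse 4, 5, 17 or 19, and the liver call without mouse 1, 3, 17, 18 or 19. The dimmer Acin1 probe changed by -0.42 in lung and -0.18 in liver at D3.

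Probes of one gene also disagreed for Ccnl2. Its second probe, with the same accession, stayed between -0.11 and 0.09 in D0 lungs and between -0.39 and 0.13 in D3 lungs, a change of -0.02 (SE 0.08), and changed by -0.07 (SE 0.09) in liver at D2. The largest gaps between probes of a gene were 1.55 for Dido1 and 0.86 for Ccnl2 in lung at D3, and 1.47 for Ccnl2 and 1.30 for Dido1 in liver at D2. Which part of each transcript a probe reads was not analysed here.

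**Figure D2:**
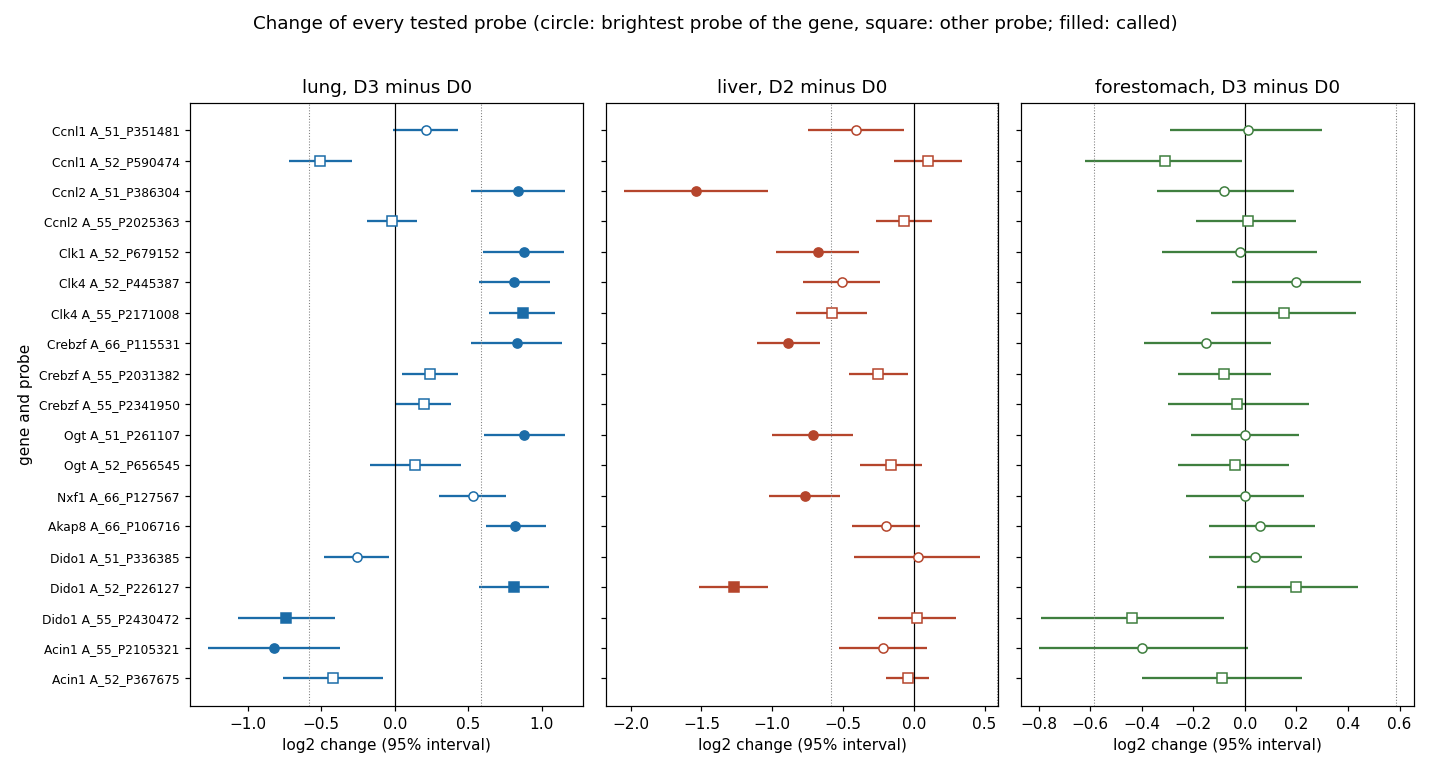
Log2 change from D0 (horizontal axis) for each of the 19 tested probes (vertical axis) in lung at D3, liver at D2 and forestomach at D3, with 95% intervals as bars, filled symbols for called probes and dotted lines at a fold change of 1.5. The 8 probes called higher in lung lie on the negative side in liver, and every forestomach interval reaches inside the dotted lines.

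The lung change exceeded the liver change by the called margin for 4 of the 10 genes at D1 (0.151% of all probes tested in both tissues), 7 at D2 (1.89%) and 7 at D3 (1.86%). The D1 count was 1, Ccnl2 alone, without mouse 2, 3, 4, 6 or 9, and 2 without mouse 1, 8 or 10, with the authors' table, with Cy5 alone, with no filter on dim probes or with only the groups compared in the fit. Without mouse 5 the 4 genes stayed called at D1 and Akap8 was called as well, at 0.62. With median centring the counts from D1 to D3 were 0, 1 and 0. The shares of all probes called in these other fits are not given. At D3 the difference of changes was 2.14 (SE 0.28) for Ccnl2, 1.5 (SE 0.18) for Crebzf, 1.31 (SE 0.20) for Clk1, 1.22 (SE 0.18) for Ogt, 0.95 for Clk4, 0.92 (SE 0.16) for Nxf1 and 0.89 for Akap8. For Ccnl2 this difference was 2.47 without mouse 5 and 2.05 without mouse 19. Ccnl1 differed by 0.49 (SE 0.20), which was not called. Acin1 differed by -0.09 (SE 0.28) and the brightest Dido1 probe by -0.45 (SE 0.22). These differences are what chose the genes and are given with no test.

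**Figure D3:**
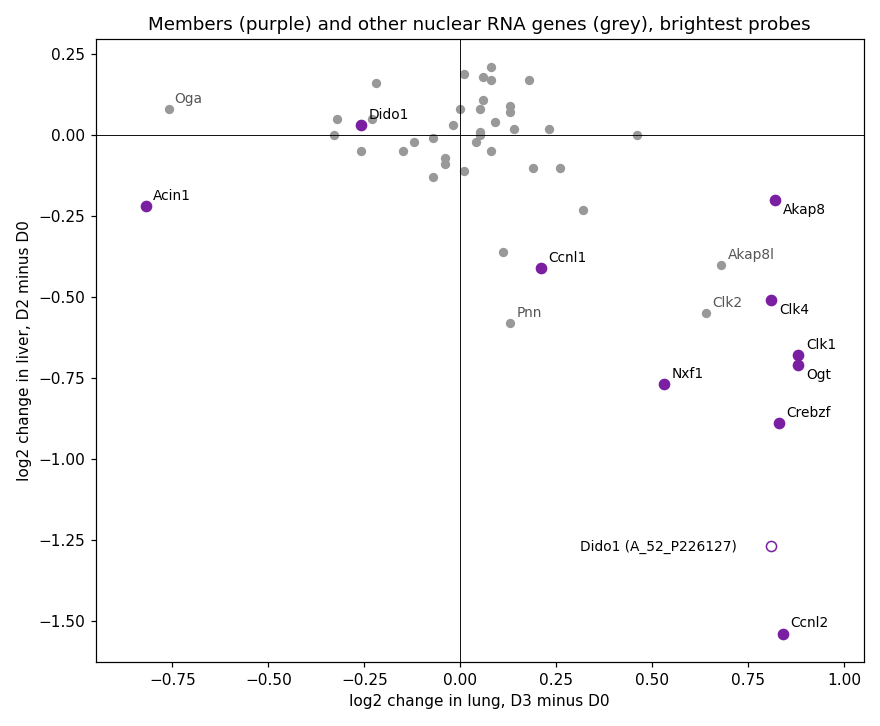
Log2 change in lung at D3 (horizontal axis) against log2 change in liver at D2 (vertical axis), 1 point per gene by its brightest probe, for the 10 genes (purple) and the genes of the same machinery (grey), with Dido1 probe A_52_P226127 as an open circle. Of the 10 genes, 8 lie at positive lung and negative liver values, and most grey points lie near 0 on both axes.

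Each tissue was hybridised on 3 slides, and each slide held all 4 doses. Within slides, 8 of the 10 genes were higher at D2 and at D3 than at D0 in lung on each slide (of 9 measured on slide 2), with median changes of 0.45, 0.58 and 0.82 at D2 and 0.54, 1.31 and 0.62 at D3. Slide 2 at D3 rests on mouse 19 alone. In liver 9 or 10 of the 10 were lower on each slide at each dose, with medians between -0.78 and -0.36. The same arrays chose the genes by their direction, so these counts are a description and no test of the slide. The share of all probes with the same direction on each slide is not given. The Cy3 channel of the member probes, which reads the common reference, changed by -0.14 to 0.28 between doses over the 3 tissues, and none of these changes was called.

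The mean log2 ratio of the 10 genes, each taken relative to its tissue mean, was -0.33 to -0.12 in D0 lungs, -0.35 to -0.15 at D1, 0.09 to 0.40 at D2 and 0.12 to 0.59 at D3, where mouse 19 had 0.59 and the others 0.12 to 0.24. In liver it was 0.45 to 0.58 in 4 D0 mice, -0.07 in mouse 5, and -0.34 to 0.16 in the dosed mice. Without mouse 5, 5 genes were called lower at D1 (Clk1 added), 6 at D2 (Clk4 added) and 3 at D3, while 0.736, 1.08 and 0.816% of all probes were called lower. Without mouse 19, the same 6 genes were called higher in lung at D3, and the share of all probes called in that fit is not given.

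In lung the B cell markers Cd79a, Cd79b and Ms4a1 also differed between doses. Their mean log2 ratio was 0.04 to 0.73 at D0, 0.42 to 1.24 at D1, 0.92 to 1.72 at D2 and 0.73 to 0.96 at D3. Hspa1a, a heat shock gene, also differed between doses, from 2.68 ± 0.79 (SD, n = 5) in D0 lung to -0.27 ± 0.08 at D3 and from 1.21 ± 0.61 in D0 liver to 0.16 ± 0.25 at D2. Its changes were -2.95 (SE 0.31) and -1.04 (SE 0.26), negative in both tissues, and in forestomach at D3 its change was -1.35 (SE 0.51). In liver the B cell markers were at -2.43 to -1.81 over all doses. T cell markers in lung were at 0.20 to 0.65 at D0 and 0.49 to 2.00 at D3, and the markers of lung itself at 6.24 to 6.77 over all doses. The part of any of these in the changes of the 10 genes was not tested.

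Forestomach was not used to choose the genes. None of the 10 was called there at D1 (0% of 32342 probes called in either direction), D2 (0.0124%) or D3 (0.0247%). Over the 19 probes and 3 doses the limma adjusted p ranged from 0.849 to 1, and the only unadjusted p-values under 0.05 were those of 2 probes at D3. Ccnl2 was at -0.45, -0.61, -1.05 and -0.73 in D0 forestomachs and at -0.75, -0.76, -0.93, -0.94 and -0.57 at D3, a change of -0.08 (95% interval -0.34 to 0.19). The intervals at D3 were -0.32 to 0.28 for Clk1, -0.39 to 0.10 for Crebzf, -0.21 to 0.21 for Ogt, -0.23 to 0.23 for Nxf1 and -0.14 to 0.27 for Akap8, each of which leaves out a change as large as that gene's in lung at D3. The lung changes helped choose the genes, so this comparison is a description, and the intervals do not leave out smaller changes. Clk4 had -0.05 to 0.45. The intervals reached furthest from 0 for Acin1, at -0.80 to 0.01, and for the 2 probes with an unadjusted p under 0.05, Dido1 A_55_P2430472 at -0.79 to -0.08 (limma adjusted p = 0.849) and Ccnl1 A_52_P590474 at -0.62 to -0.01 (limma adjusted p = 0.973).

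The difference between tissues was called for fewer genes against forestomach than between lung and liver. The share of all probes called higher at D3 was smaller too, at 0.232% for lung minus forestomach against 1.86% for lung minus liver. The lung change exceeded the forestomach change at D3 for Crebzf by 0.98 (SE 0.19), Clk1 by 0.90 (SE 0.20), Ogt by 0.88 (SE 0.18) and Akap8 by 0.76 (SE 0.15), against 0.232% of all probes. The liver change lay below the forestomach change at D2 for Ccnl2 by -1.31 (SE 0.28), Nxf1 by -0.78 (SE 0.16) and Ogt by -0.77 (SE 0.18), against 0.217% of all probes. At the other doses, lung minus forestomach was called for 0 of the 10 genes at D1 and D2, where 0 and 26 of all 28453 probes were called higher. Liver minus forestomach was called lower for Ogt at D1 and for 0 genes at D3, with 5 of all 22101 probes called lower at each. Both comparisons contain a contrast that chose the genes.

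In vehicle-treated animals the tissues differed for some of the genes. Ccnl2 was at -1.32 ± 0.19 (SD, n = 5) in lung, -0.71 ± 0.26 (n = 4) in forestomach and -0.12 ± 0.76 (n = 5) in liver, where 4 of 5 mice lay above every other tissue's array and mouse 5 lay within the lung range. Crebzf was at -0.56 ± 0.23 in lung, -0.06 ± 0.18 in forestomach and 0.29 ± 0.29 in liver. Every D0 lung lay below the forestomachs, the highest lung at -0.29 and the lowest forestomach at -0.28, and every D0 lung lay below every D0 liver, while forestomach and liver overlapped. Clk4 was at -0.28 ± 0.18 in lung, -0.30 ± 0.19 in forestomach and 0.27 ± 0.26 in liver. Clk1 was at -0.16 ± 0.18 in lung, 0.13 ± 0.27 in liver and 0.31 ± 0.13 in forestomach. The neighbours in both orders overlapped. For Ogt (-0.83 ± 0.15, -0.76 ± 0.26 and -0.52 ± 0.35 in lung, forestomach and liver) and Nxf1 (-1.04 ± 0.12, -0.86 ± 0.24 and -1.13 ± 0.31) all neighbours overlapped. Acin1 ran the other way, at 0.22 ± 0.30 in lung, -0.17 ± 0.19 in forestomach and -1.10 ± 0.35 in liver, and the brightest Dido1 probe was at 0.65 ± 0.25, 0.45 ± 0.10 and -0.24 ± 0.15 in the same order. For both probes lung and forestomach overlapped and every liver lay below them. Akap8 was at -0.61 ± 0.16 in lung, -0.54 ± 0.09 in forestomach and -0.11 ± 0.26 in liver, and Ccnl1 at -0.47 ± 0.05, -0.28 ± 0.23 and -0.58 ± 0.33, with overlap between neighbours. These levels are a description, since mouse 5 and the D0 arrays also enter the contrasts that chose the genes.

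Other genes of the same machinery, 43 in a list that holds none of the 10, were mostly not called. The list was drawn up with earlier results of these data known. Its p-values are therefore a description and not an independent test. Of the 41 with a probe, 2 rose and 1 fell in lung at D3, where 1.32% of all probes were called higher and 0.566% lower. Clk2, another CLK kinase, rose by 0.64 (SE 0.14, limma adjusted p = 0.00792), and Akap8l, a relative of Akap8, by 0.68 (SE 0.16, limma adjusted p = 0.0123). Oga, the enzyme that removes the sugar Ogt adds, fell by 0.76 (SE 0.17, limma adjusted p = 0.00738). These 3 calls were not made with median centring, and without mouse 19 1 gene of the list was called. In liver at D1, 1 of 40 fell, Pnn, an SR-related protein of the exon junction, by 0.71 (SE 0.12, limma adjusted p = 0.012), a call that was lost without mouse 1, with median centring and with only D0 and D1 in the fit. None was called in lung at D1 or D2, liver at D2 or D3, or forestomach by limma, where 3, 6, 6, 5 and, from D1 to D3 in forestomach, 2, 2 and 4 had an unadjusted p under 0.05. The median change of the list was 0.05 in lung at D3 and 0.01 in liver at D2.

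Ordered by role, the 9 cyclins and kinases of transcription, Cdk11b, which encodes a partner of cyclin L, among them, changed by -0.26 to 0.23 in lung at D3, and the 10 export factors (Nxt1, the partner of Nxf1, Alyref and the THO complex) by -0.23 to 0.32. The 8 genes of the exon junction and ASAP complex changed by -0.26 to 0.46. None of these genes was called in lung. The lung change exceeded the liver change for Clk2 by 0.97 at D2 (limma adjusted p = 0.00201) and 0.98 at D3 (limma adjusted p = 0.00315), for Akap8l by 0.92 (limma adjusted p = 0.00031) and 0.83 (limma adjusted p = 0.00217), and for Pnn by 0.71 at D2 (limma adjusted p = 0.0014). In liver at D2, Clk2 and Akap8l had changes of -0.55 (SE 0.14) and -0.40 (SE 0.08), neither of which passed both thresholds. The p-values of these listed genes are likewise a description, since the list was drawn up with earlier results known.

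Over the 58 arrays, each probe taken relative to its tissue mean, the genes most like the mean of the 10 were Fam193b (r = 0.94), Mapk8ip3, Ankrd16, Lime1 and Pnisr (each r = 0.93), Acrbp and Neat1 (each r = 0.91) and Rbm33 (r = 0.90). The arrays share the dose groups that chose the genes, so the values are a description. Over all 21727 probes tested in the 3 tissues, r had a median of -0.01 and had a 5th percentile of -0.33 and a 95th percentile of 0.43.

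Neat1, a long non-coding RNA that stays in the nucleus and builds paraspeckles, changed by 1.60 (SE 0.30) in lung at D3 and -2.47 (SE 0.36) in liver at D2. Its 4 higher D0 livers were at 0.82, -0.98, 0.56 and -0.27, mouse 5 was at -2.13, and the dosed livers were at -3.04 to -2.41. Without mouse 19 the lung change at D3 was 1.17 (SE 0.15), and without mouse 5 the liver change at D2 was -2.90 (SE 0.25), fits chosen after seeing the data. Malat1, another nuclear RNA, changed in the same directions by 0.37 (SE 0.13) and -0.31 (SE 0.11), neither called. The lowest r belonged to small nuclear and nucleolar RNAs and to Ttll12 (r = -0.61): Rnu1b6, a U1 RNA (r = -0.78), changed by -1.43 in lung at D3 and 1.5 in liver at D2, Rnu2-10, a U2 RNA (r = -0.74), by -1.04 and 0.84, and Snora74a (r = -0.66) by -0.51 and 0.48. Fam193b changed by 0.88 and -1.09, and Pnisr, an SR-related protein, by 0.89 and -1.09. In forestomach at D3, Neat1 changed by -0.27 (95% interval -0.61 to 0.06).

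**Figure D4:**
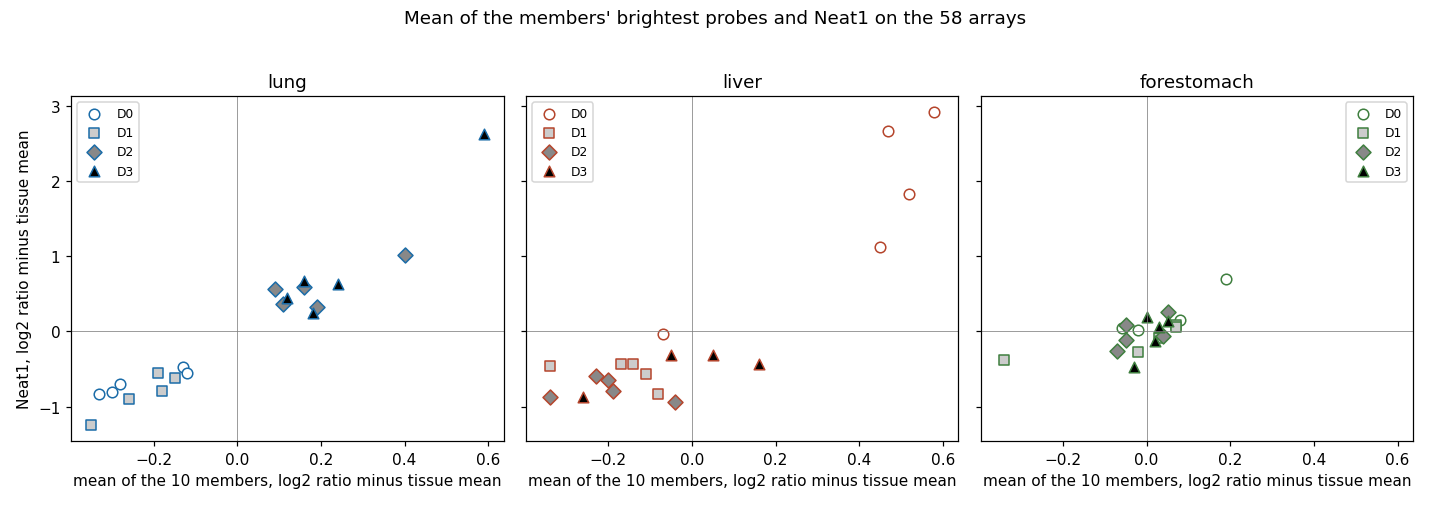
Log2 ratio of Neat1 (vertical axis) against the mean log2 ratio of the 10 genes' brightest probes (horizontal axis), each minus its tissue mean, with 1 point per array in a panel for each tissue and a symbol for each dose. D2 and D3 lungs lie at the upper right of the D0 and D1 lungs, 4 D0 livers lie at the upper right of the dosed livers and of mouse 5, and most forestomach arrays lie near 0; the uppermost lung point is mouse 19 at D3.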

How the data were processed

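RNA of lung, liver and forestomach of 20 mice was hybridised by the authors in Cy5 against a universal mouse reference RNA in Cy3 on 2-colour Agilent arrays of 62976 spots, 59305 of them gene spots, and scanned with Feature Extraction 10.7.3.1. The deposited scanner files hold several intensities per spot and channel, among them median, background and processed signals. The deposited value table holds log2 ratios that the authors had loess-normalized, and served as an alternative (r with the values used here 0.9948 to 0.998). Loess was run within each array on the median intensities without background correction, as the study's methods describe. Spots marked as outliers by the scanner software (0.495% of gene spots) were left out, and spots of a probe were averaged. Symbols came from the RefSeq gene table of GRCm38.p6 by accession (26413 probes). Only probes that were well above background in the Cy5 channel of 4 or more arrays of a tissue were tested there. Doses were compared with D0 within each tissue, and tissues by the difference of changes, with limma 3.58.1 in R 4.3.3 in place of the study's MAANOVA, which was not used here. A probe was called at an adjusted p (Benjamini-Hochberg, over all probes tested) of 0.05 or less together with a fold of 1.5 or more. The code was tested on simulated data.

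The members and lists were chosen with earlier results of these data known. All 10 genes are described by their brightest probe, other probes beside it. Of the 43 related genes every called one is named, and of the most alike genes the 8 with the highest and 4 with the lowest r. Mouse numbers in the labels tie the tissues of an animal. The deviations of lung and liver of a mouse from their group means correlated with r of -0.03 to 0.19 (median 0.13, 19 mice). Replicates of a group correlated with r of 0.832 to 0.98. Alternatives covered normalization, background, channel, filter, slide and mouse blocks, the samples fitted, the probe and leaving out each mouse. Columns belonging to no sample numbered 0. Mouse 20's liver and mouse 5's forestomach were not analysed here.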

Additional observations from a re-analysis of the deposited data

Results flagged for a closer look

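Over 224 groups of 4 or 5 arrays of the member probes, 1 array stood far from the others in 17 groups. Chance marks about 1 in 20 groups. The D3 lung of mouse 19 accounted for 4 of them: Ccnl1 at 0.15 (others -0.39 to -0.34), Ccnl2 at 0.23 (others -0.78 to -0.56), Nxf1 at -0.01 (others -0.70 to -0.53) and Akap8 at 0.56 (others 0.07 to 0.20). The D0 liver of mouse 5 accounted for 2, Ccnl2 at -1.46 (others -0.03 to 0.38) and Nxf1 at -1.67 (others -1.12 to -0.94).

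In forestomach the array apart was mouse 2 at D0 for the dimmer Ccnl1 probe (-0.16) and for Dido1 probe A_55_P2430472 (-0.21), mouse 7 at D1 for Clk4 probe A_55_P2171008 (-1.21) and Nxf1 (-1.22), mouse 10 at D1 for the brightest Dido1 probe (0.19) and mouse 13 at D2 for Akap8 (-0.77). In liver at D1 it was mouse 8 for Clk4 probe A_55_P2171008 (-0.13) and mouse 9 for Nxf1 (-2.01). In lung it was mouse 5 at D0 (0.09) and mouse 7 at D1 (-0.26) for the second Ccnl2 probe, and mouse 15 at D2 for the dimmer Acin1 probe (0.88).

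The change at D3 differed between lung and liver past the limma threshold for 7 genes, by 2.14 for Ccnl2, 1.5 for Crebzf, 1.31 for Clk1, 1.22 for Ogt, 0.95 for Clk4, 0.92 for Nxf1 and 0.89 for Akap8. These differences chose the genes and are a description.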

How the results depend on the processing

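Over 2960 alternative values of single genes by their brightest probes, 2862 moved by less than the spread between replicates, 98 moved further and 0 of those called reversed. The total is weighted by the 1940 values with 1 mouse left out, of which 0 moved further. With median centring 45 of 100 values moved further, and with median centring and the slide block 47 of 100. With other probes of a gene, 2 of 85 reversed a called value: Ccnl2 in lung by its second probe, at -0.05 (D2) and -0.02 (D3). Called or not, the sign turned in 124 of the 2960 and 28 of the 85, among them Ccnl1 in lung by its second probe (-0.30 at D2 and -0.51 at D3 against 0.17 and 0.21) and Dido1 in lung by A_52_P226127 (0.60 and 0.81 against -0.19 and -0.26). Centring each array on its median shifted the median change of all probes to 0.38 in lung at D2 and 0.15 at D3 and the lung minus liver median to 0.65 and 0.26, and raised the median SE in lung from 0.10 to 0.27. With it the members called numbered 0 in lung at D2, 0 at D3, 1 in liver at D1, 1 at D3, and 1 and 0 for lung minus liver at D2 and D3, and the related genes called 0 in lung at D3 and 0 in liver at D1. With the slide block beside it the median SE was 0.11, and the related genes called in liver at D1 were again 0. All probes called higher in lung at D3 were 400 with loess, 792 with Agilent's processed signals, 233 with Cy5 alone, 0 with median centring and 1175 with median centring and the slide block. With only the groups compared, 0, 3 and 0 members were called in liver from D1 to D3 and 0 related genes at D1. Cy5 alone gave 1 member in liver at D3. Agilent's processed signals gave 2 related genes in liver at D1. By the adjusted p alone, 7 related genes were called in lung at D3 and 2 in liver at D1. For the liver counts under these settings, the share of all probes called is not given.

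Leaving out each mouse in turn gave 2 to 6 members in lung at D2 (2 without mouse 15, 3 without mouse 3 or 13), 6 to 6 in lung at D3, 4 to 5, 3 to 6 and 1 to 3 in liver from D1 to D3 (3 at D2 without mouse 4, 1 at D3 without mouse 1, 3, 17 or 18), 0 in forestomach, and 7 to 8 for lung minus liver at D2 and 7 at D3. For the related genes it gave 1 to 3 in lung at D3 (1 without mouse 19) and 0 to 2 in liver at D1 (0 without mouse 1, 2 without mouse 5). The shares of all probes called in the same fits are not given beside these ranges. With the mouse as a replicate block, 7 members were called for lung minus liver at D2 and 7 at D3, as without it; over all probes it gave 434 higher and 78 lower at D2 against 413 and 68, and 432 and 52 at D3 against 408 and 44. The cause of these differences was not tested. Signal over background limits the dimmest probes, 1 of which was above it on 0 arrays.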
